A study of Mus musculus with 2 samples.

Results

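The AP-1, Egr and other immediate early genes were read in brain neural stem cells with and without knockdown of Ccdc25. The 10 genes Fos, Fosb, Fosl2, Jun, Junb, Jund, Egr1, Egr2, Ier2 and Zfp36 were taken by symbol from the 19595 genes of the deposited count table, and all 10 were found once each. The cells came from ICR mice at embryonic day 13. The control was labelled psicor (genotype WT) and the knockdown sh1 (genotype KO). Triplicates are mentioned in the design, but each group has a single column of counts in the table. No difference below therefore has a replicate check, no test was made, and every interval covers counting error only. Whether a column is 1 culture or a pool of several is not stated in the labels, nor is the way the knockdown was delivered.

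Immediate early genes are transcribed within minutes of a growth factor, calcium or stress signal, without new protein synthesis. Kinases of the ERK family and calcium signals act on transcription factors such as SRF with its Elk partners and CREB, which already sit at these promoters. Fos and Jun proteins pair through leucine zippers into AP-1, Egr proteins bind DNA through zinc fingers, and Zfp36 binds AU-rich messages and speeds their decay. In the developing brain such genes respond to growth factors in progenitors and to synaptic activity in neurons.

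The upstream DNA of these genes was examined first, since it holds the sites through which the signals act. Promoter windows of RefSeq (GRCm38.p6) were found for 8 of the 10 genes, and not for Egr1 and Ier2. Each window holds 250 bases before a start and a short stretch after it, and all of it was searched on both strands. The motifs were the short cAMP response element TGACG, its full form TGACGTCA, the AP-1 site TGANTCA, the GC box GGGCGG and the CArG box bound by SRF. Only these letters were searched for, so variants of a site were not counted. Fos and Junb, both at least 2-fold lower in the knockdown library, are shown beside Jun, which was not lower. Egr2, which lay within 2-fold, also held the short cAMP response element. Fosl2 and Zfp36, which were at least 2-fold lower, did not. Capitals mark the short cAMP response element and the GC box in either orientation.
Fos upstream, chr12:85473640-85473889, plus strand: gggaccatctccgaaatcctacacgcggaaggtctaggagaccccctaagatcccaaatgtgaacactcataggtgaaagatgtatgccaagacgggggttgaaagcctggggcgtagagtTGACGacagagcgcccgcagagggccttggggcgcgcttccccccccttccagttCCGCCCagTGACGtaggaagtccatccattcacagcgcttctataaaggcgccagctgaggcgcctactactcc
Junb upstream, chr8:84978749-84978998, minus strand: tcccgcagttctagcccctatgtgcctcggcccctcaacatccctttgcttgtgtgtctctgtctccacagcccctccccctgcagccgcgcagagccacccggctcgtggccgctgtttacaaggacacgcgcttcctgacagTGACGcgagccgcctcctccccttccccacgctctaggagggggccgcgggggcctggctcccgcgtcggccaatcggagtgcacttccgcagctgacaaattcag
Jun upstream, chr4:95052223-95052472, minus strand: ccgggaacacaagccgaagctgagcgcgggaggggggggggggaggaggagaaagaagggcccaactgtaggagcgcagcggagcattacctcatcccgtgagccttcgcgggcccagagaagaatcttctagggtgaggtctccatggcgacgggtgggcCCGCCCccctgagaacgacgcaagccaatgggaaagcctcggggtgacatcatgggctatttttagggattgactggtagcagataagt

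Counted back from the start, the Fos window held a short cAMP response element at -66 to -62, another at -129 to -125, and a GC box at -74 to -69. Junb held 1 short cAMP response element, at -106 to -102, and Jun held 1 GC box, at -89 to -84. Fosb had a short cAMP response element at -60 to -56 and GC boxes at -46 to -41 and -235 to -230. Fosl2 had 1 GC box at -75 to -70, and none of these letters occurred in the Jund window. Within the windows, a CArG box was found for Zfp36 and for Egr2, and sequence further upstream was not searched. These stretches are shown with 10 bases on each side and the box in capitals.
Zfp36, chr7:28379267-28379296, minus strand: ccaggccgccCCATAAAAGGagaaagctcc
Egr2, first site, chr10:67537484-67537513, plus strand: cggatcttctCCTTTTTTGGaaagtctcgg
Egr2, other site, chr10:67537787-67537816, plus strand: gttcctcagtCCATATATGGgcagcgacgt

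The CArG box of Zfp36 lay at -58 to -49 and shared 1 base with a GC box at -63 to -58. Egr2 has 5 listed starts, whose windows overlap in part, and 4 of these windows held a CArG box. Some of them also held the short cAMP response element, at -111 to -107 and -55 to -51 in the window from 67537619. Some Egr2 windows held GC boxes. Of all 32851 promoter windows, 1.63% held a CArG box, 20.8% a short cAMP response element, 1.79% its full form, 7.81% an AP-1 site and 35.7% a GC box. Zfp36 and Egr2 share the CArG box and differed in size of change, with ratios of knockdown to control of 0.295 and 0.733. Across all genes with a window and a mean level of 1 CPM (1 count in 1000000 of the scaled library) or more, the 164 with a CArG box had a median log2 fold of -0.076. The other 10108 had a median of -0.0043. Past 2-fold downward lay 9.76% of the genes with the box and 7.38% of those without it. For the short cAMP response element, held by Fos, Fosb, Junb and Egr2, the shares ran the other way, at 6.21% with and 8.09% without. They did so as well for its full form (6.30% and 7.46%) and for the GC box (6.95% and 8.53%). For the AP-1 site they were 10.5% and 7.23%. A match of letters describes the sequence and is not a measured binding site.

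Of the 10 genes, 7 lay at least 2-fold below their control level after knockdown by log2 fold, and 0 lay 2-fold above it. The same shares over all 14158 genes of 1 CPM or more on average were 7.76% below and 7.64% above. The 10 genes had a median log2 fold of -1.28, against -0.0042 over all genes. They were chosen with earlier results of these data known, so their contrast with all genes is a description only. All 10 passed the minimum of 1 CPM. Their summed counts were 22979 for control cells and 8068 after knockdown, or 1364 and 512 CPM. Disregarding size, 9 of the 10 were below their control level, as were 50.3% of all genes. The counting interval of the ratio lay below 1 for 8 genes and above 1 for 1, as it did for 33.6% and 33.2% of all genes. The authors' deposited table marks 7 of the 10 as significant, by a test that it does not name, and so marks 18.7% of its 19595 genes. The mark does not follow the adjusted p-value alone, since Egr2 is unmarked and Fosb, with a larger adjusted p-value, is marked. It rests on the same libraries and is no independent check. Ccdc25 itself was measured at 32.8 and 26.1 CPM, and its ratio was 0.794 (0.697 to 0.904). This lay within 2-fold, with an interval below 1 as for 33.6% of all genes.

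**Figure D1:**
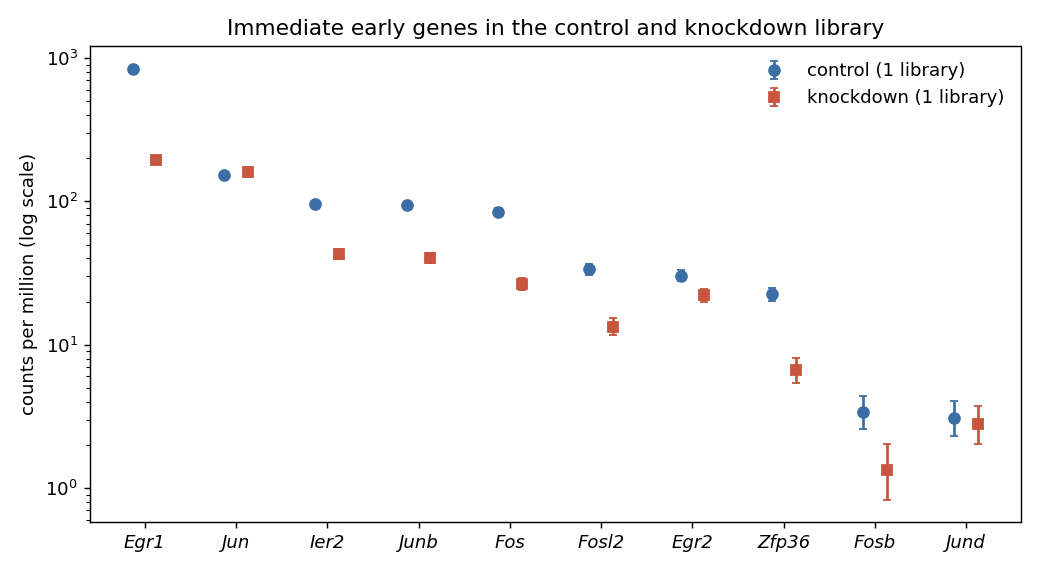
CPM (log axis) of the 10 genes in the control library (circles) and the knockdown library (squares), 1 library each, ordered by the control level. Bars are exact 95% Poisson intervals and cover counting error only. Egr1 stood at 844 and 194 CPM, while both symbols nearly coincide for Jun and Jund.

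**Figure D2:**
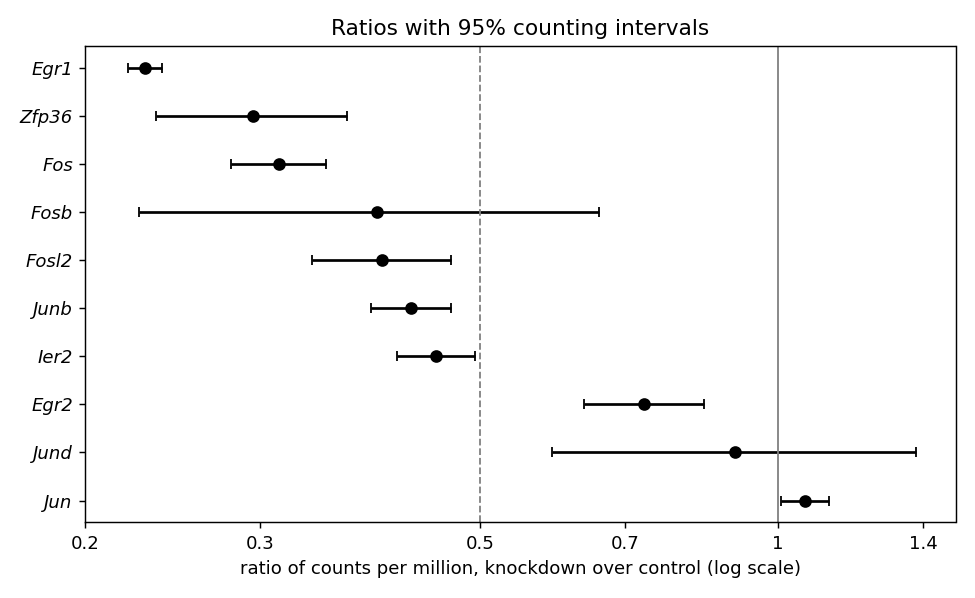
Ratio of CPM, knockdown over control (log axis), with exact conditional binomial 95% intervals. The dashed line is 2-fold lower and the solid line no difference. Points run from Egr1 at 0.230 to Jun at 1.06, and the intervals of Fosb and Jund, the genes of fewest counts, are the widest.

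Fos, Fosl2 and Fosb were each more than 2-fold lower in the knockdown library, while their relative Fosl1, which is not among the 10, had a ratio of 0.920 (0.655 to 1.29). Fos, the founding partner of Jun in AP-1, had 1432 counts in control cells and 420 after knockdown. On the CPM scale these were 85.0 and 26.6, with a ratio of 0.313 (0.280 to 0.350), so the control level was 3.19 times the knockdown level. Fos (ENSMUSG00000021250) lies on chromosome 12, 85473890 to 85477273, plus strand, in the positions of the table, which are those of GRCm38. Fosl2, which encodes the longer-lived partner Fra-2, had 566 and 211 counts. Its level was 33.6 and 13.4 CPM, a ratio of 0.398 (0.338 to 0.467). Fosb, which is known for its persistence in neurons after repeated stimulation, was scarce, with 57 and 21 counts. Its 3.38 and 1.33 CPM gave a ratio of 0.394 with a wide interval (0.227 to 0.660), which reaches past 2-fold on the weaker side. The ratios of Fosb and Fosl2 could not be told apart at this depth.

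Within the Jun family, Junb was lower while Jun was not. Junb, a partner that often restrains Jun, had 1593 and 635 counts. These were 94.5 and 40.3 CPM, a ratio of 0.426 (0.388 to 0.467). Jun, the main partner of Fos, had 2556 and 2547 counts, and its ratio was the nearest to 1 of the 10 genes. Its 152 and 162 CPM gave a ratio of 1.06 (1.01 to 1.13), an interval just above 1 with the scaling used. With DESeq2's factors the interval was 0.996 to 1.11 and with total counts 0.972 to 1.09, so no direction can be given for Jun. The interval of Junb lay wholly below that of Jun under each of these scalings. Jund, which many cells express steadily, had 52 and 44 counts, or 3.09 and 2.79 CPM. Its ratio of 0.904 had an interval from 0.591 to 1.38, so a difference in either direction was not detectable at this depth.

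Some of these counts depend on how reads over shared bases were assigned. In GENCODE M21, 877 of the 1668 exonic bases of Jund are shared with Gm11175, an antisense gene that the table does not list. Use of strand in counting is not stated, which leaves the level of Jund uncertain. Junb shares 173 of 2301 exonic bases with Prdx2 on the opposite strand, which had 6977 and 8611 counts. Jun shares 232 bases with Junos (9 and 18 counts), and Zfp36 shares 125 with Gm44710 (3 and 3 counts). The other 6 genes share no exonic bases with another gene there, and 5 of these 6 were at least 2-fold lower. Over all genes this share was 7.76%, and it was not computed for all genes without shared bases. The split was chosen after seeing the data.

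The make-up of the AP-1 transcripts differed between the libraries, and a share within a library does not depend on how the libraries were scaled. Such a share does depend on how reads over shared bases were assigned, which is uncertain for Jund as given above. Fos, Fosb, Fosl1 and Fosl2 together gave 33.7% of the counts of the 7 Fos and Jun genes in control cells (exact binomial 95% interval 32.5% to 34.9%). After knockdown they gave 18.2% (17.1% to 19.5%). Jun alone took 40.3% (39.1% to 41.6%) of these counts in control cells and 64.5% (63.0% to 66.0%) after knockdown. Of the Jun family, Jun made up 60.8% and 79.0% and Junb 37.9% and 19.7%. Fos made up 67.1% (65.1% to 69.1%) of the Fos family in control cells and 58.3% (54.6% to 62.0%) after knockdown. Fosl1, which encodes Fra-1, had 79 and 68 counts and took 3.70% and 9.44% of the family, but shares 1163 exonic bases with Ccdc85b on the opposite strand.

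**Figure D3:**
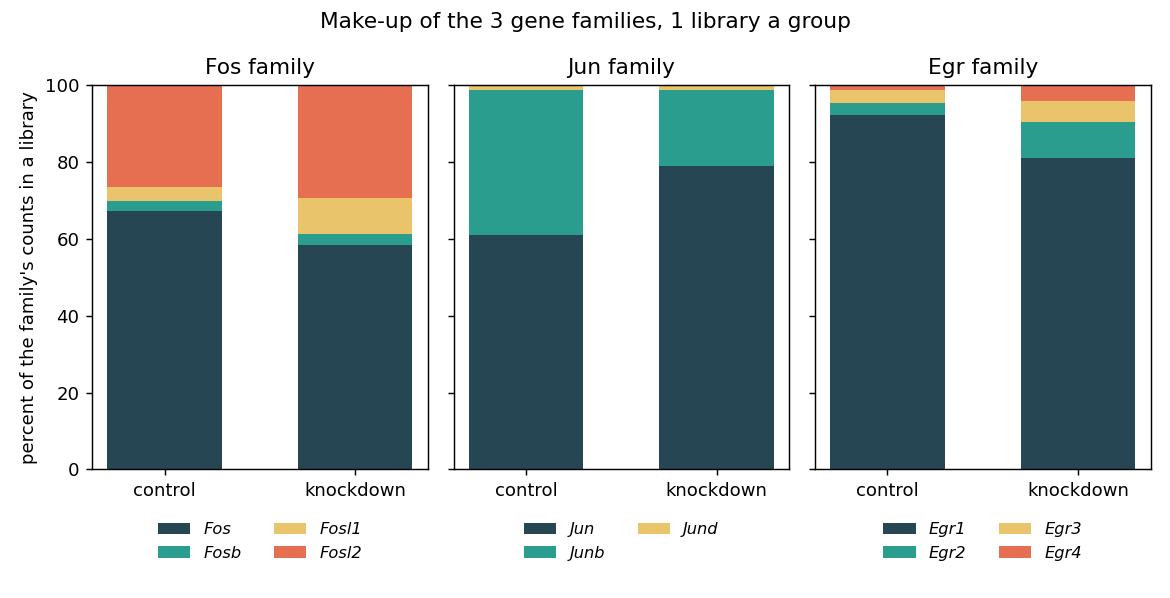
Percent of the counts of each family in a library, stacked by gene, for the Fos, Jun and Egr families in the control and the knockdown library. Jun takes a larger part of its family in the knockdown library (60.8% against 79.0%), and Fos and Egr1 a smaller part of theirs.

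Among the Egr genes, Egr1 had the lowest ratio of all 10 genes and Egr2 lay within 2-fold. Egr1, a zinc finger factor that rises quickly with ERK activity, had 14230 counts in control cells and 3058 after knockdown. Its 844 and 194 CPM gave a ratio of 0.230 (0.221 to 0.239), a control level 4.35 times the knockdown level. Egr1 (ENSMUSG00000038418) lies on chromosome 18, 34859823 to 34864984, plus strand. Of the 573 other genes whose mean level lay within 2-fold of that of Egr1, 1 lay further below its control level. That gene was Map1b, a microtubule protein of growing axons, at 743 and 153 CPM (named after its value was seen). The same share was 1.02% for Fos, between 2.05% and 3.32% for Junb, Ier2, Zfp36 and Fosl2, 12.2% for Fosb and 18.7% for Egr2. It was 43.3% for Jund and 59.2% for Jun. Egr2, the factor of hindbrain segments and of myelinating Schwann cells, had 509 and 349 counts. Its 30.2 and 22.1 CPM gave a ratio of 0.733 (0.638 to 0.841). Egr1 made up 92.1% of the counts of the 4 Egr genes in control cells and 81.0% after knockdown. Egr2 made up 3.30% and 9.25%.

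The remaining pair were both more than 2-fold lower. Zfp36, which encodes the message-decay factor tristetraprolin, had 380 and 105 counts. Its 22.5 and 6.66 CPM gave a ratio of 0.295 (0.236 to 0.367). Ier2, a nuclear protein of early growth factor responses, had 1604 and 678 counts. Its 95.2 and 43.0 CPM gave a ratio of 0.452 (0.412 to 0.494), the ratio nearest to 2-fold among the 7 lower genes. Counting from the largest decrease, the 7 genes therefore ran Egr1, Zfp36, Fos, Fosb, Fosl2, Junb and Ier2. Neighbours in this order overlapped in their intervals, so their order is not resolved. The interval of Egr1 lay below those of Fos, Fosl2, Junb and Ier2.

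**Figure D4:**
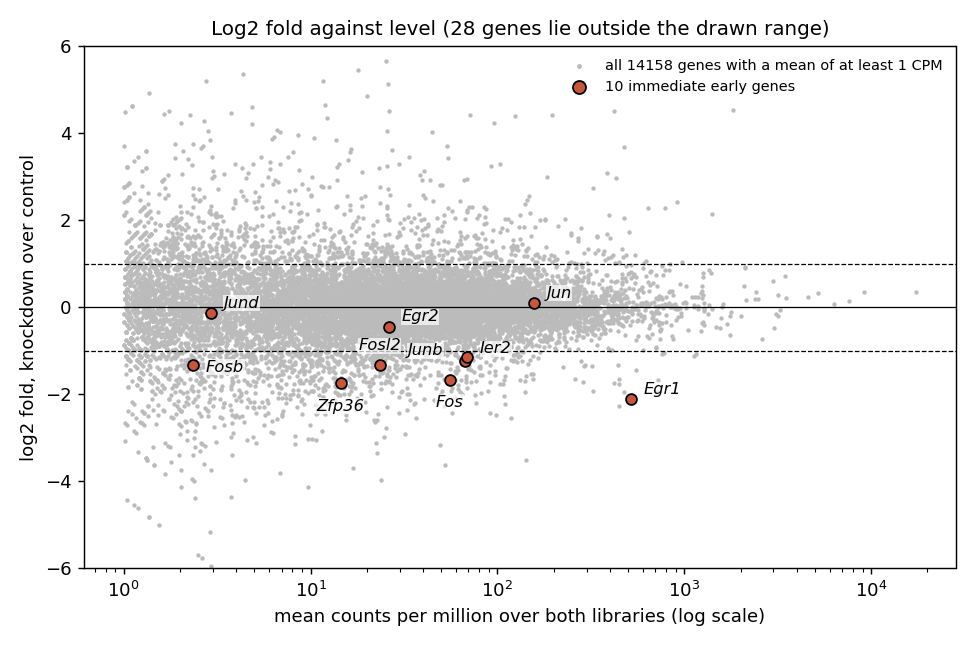
Log2 fold, knockdown over control, against mean CPM (log axis) for 14158 genes (grey) and the 10 immediate early genes (red). Dashed lines mark 2-fold, and 28 genes lie outside the drawn range. The 7 lower genes lie below the dashed line at levels from Fosb to Egr1, with Jun, Jund and Egr2 inside it.

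Levels of different genes were compared per length, as TPM, in which counts are divided by the exonic length in GENCODE M21 before scaling. In the control, Egr1 was the most abundant of the 10 at 526 TPM, followed by Ier2 at 175, Jun at 133, Junb at 115 and Fos at 101 TPM. Next came Egr2 at 24.8, Zfp36 at 18.2, Fosl2 at 9.69, Jund at 5.17 and Fosb at 1.51 TPM. The counting intervals of neighbours in this order did not overlap. In the knockdown library Jun came first at 142 TPM (136 to 147), ahead of Egr1 at 121 TPM (117 to 125). Zfp36, Jund and Fosl2 stood next to each other there at 5.37, 4.68 and 3.87 TPM. Jund overlapped both of these neighbours within counting error. Lengths over all annotated exons can exceed that of the transcript in use, as for Fosl2 (9680 bases), so the order is approximate.

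Gene structure was also compared. Jun, Junb, Jund and Ier2 have 1 exon in their longest transcript, and 2 of these 4 were at least 2-fold lower. Of the 6 with several exons, 5 were. Over all genes past the minimum, 6.13% of the 1648 with 1 exon and 7.96% of the 12496 with several were at least 2-fold lower. The GC content of the longest transcripts ran from 51.4% for Egr2 to 67.1% for Jund, and removing the trend of the log2 fold with length and GC content left the same count of 7.

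Relatives and cofactors of the 10 genes mostly lay within 2-fold. Among 11 other AP-1 and related leucine zipper genes past the minimum, 1 passed 2-fold downward and 0 upward, and the median log2 fold was -0.12. Atf3, a stress-induced repressor, had 25 and 10 counts and a log2 fold of -1.18. Batf3 was at -0.98, just inside the limit on this scale, although its ratio without the added count was 0.496. Both genes passed the minimum only through the control library, Atf3 at 1.48 and 0.634 CPM and Batf3 at 1.66 and 0.824 CPM. Maff was at -0.66, the AP-1 repressor Jdp2 at 0.22 and Fosl1 at -0.12. Batf, at 8 and 0 counts, did not pass the minimum. Of the Egr relatives and corepressors, 4 passed and all lay below their control level. Egr3, induced like Egr1 by activity, was measured at 29.3 and 13.4 CPM, and its ratio was 0.456 (0.387 to 0.537). Egr4 had a log2 fold of -0.36, and the corepressors Nab1 and Nab2, which Egr factors induce and which restrain them, had -0.48 and -0.15.

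The wider class of immediate early genes was mixed. Of 37 others past the minimum, 5 passed 2-fold downward and 1 upward, and the median log2 fold was -0.22, or -0.064 with a minimum of 10 CPM. The 5 lower genes were Npas4, Nr4a2, Nr4a3, Klf6 and Arc. Npas4, a factor induced by calcium entry in neurons, had 79 and 16 counts, a ratio of 0.216 (0.118 to 0.374). The orphan nuclear receptors Nr4a2 and Nr4a3 had log2 folds of -2.02 and -1.81. Klf6 had -1.11, and Arc, a synaptic protein and activity marker, -1.03. Arc and Per1 were named after their values were seen. Per1, a clock gene, was the 1 higher gene, at 65.7 and 141 CPM (ratio 2.14, 1.99 to 2.30). The relatives of Zfp36 did not share its direction, with Zfp36l1 at a log2 fold of 0.65 and Zfp36l2 at 0.29. Zfp36l1 shares 1672 exonic bases with a noncoding gene on the opposite strand, which had 8 and 16 counts.

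Of 12 genes known to be induced by ERK activity, which are inhibitors that damp it and the transcription factors Etv1, Etv4 and Etv5, 11 lay below their control level and 1 above, which was Etv1 (named after its value was seen). At least 2-fold lower was 1 of them, Dusp4, a nuclear phosphatase, at 12.9 and 5.20 CPM. Spry4, an inhibitor of receptor signalling, had a log2 fold of -0.99, the ERK phosphatase Dusp6 -0.94 and the factor Etv5 -0.57. The list's median was -0.42, and its intervals lay below a ratio of 1 for 10 genes, against the 33.6% of all genes given above.

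The signalling genes upstream were mostly within 2-fold at the level of RNA, which does not report kinase activity. Of 19 MAP kinases and their kinases, 2 passed 2-fold downward and 0 upward, and the median log2 fold was -0.18. They were Mapk10, the Jun kinase of neurons, at 55.5 and 20.8 CPM, and Mapk8, a widely expressed Jun kinase, at 74.5 and 36.7 CPM. Map2k7, which activates Jun kinases, had a log2 fold of 0.62, and Mapk9 -0.57. Of 17 upstream transcription factors and coactivators, 1 passed 2-fold downward and 0 upward, and the median was -0.069. Mef2c, a factor of neurons and muscle, had a log2 fold of -1.15, the CREB coactivators Crtc3 and Crtc2 0.91 and 0.50, and the SRF coactivator Mrtfb -0.41.

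Lists of target genes were read as well, with the reservation that each gene has many other regulators. Of 12 Egr targets past the minimum, 5 passed 2-fold downward and 0 upward, and the median log2 fold was -0.80. The matrix proteins Thbs1 and Fn1 had log2 folds of -2.01 and -1.57, the growth factor Tgfb1 -1.51, the synaptic vesicle protein Syn1 -1.10 and Arc -1.03. Of 10 AP-1 targets past the minimum, 2 passed 2-fold downward and 0 upward, and the median was -0.33, or -0.096 with a minimum of 10 CPM. These were the matrix proteoglycan Dcn at -2.76, which is also on the mesenchyme list below, and the secreted protein Spp1 at -1.57. Cd44, a hyaluronan receptor, had -0.67. Among 6 messages known to be bound by Zfp36, 1 passed 2-fold downward and 1 upward, and the median was -0.44, with a range over the settings from -0.86 to -0.29. Ccl3, a chemokine, had 58 and 0 counts, and with the 0 set to a floor of 3 counts it was at least 18.1-fold lower. It passed the minimum only through the control library, at 3.44 CPM there. Ptgs2, the inducible cyclooxygenase, had 6 and 26 counts and a ratio of 4.63 (1.86 to 13.8). It passed the minimum only through the knockdown library, at 0.356 and 1.65 CPM, and its mean of 1.002 CPM fell to 0.999 with DESeq2's factors and 0.991 with total counts. Ccl2 had a log2 fold of -0.86 and Lif -0.59.

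**Figure D5:**
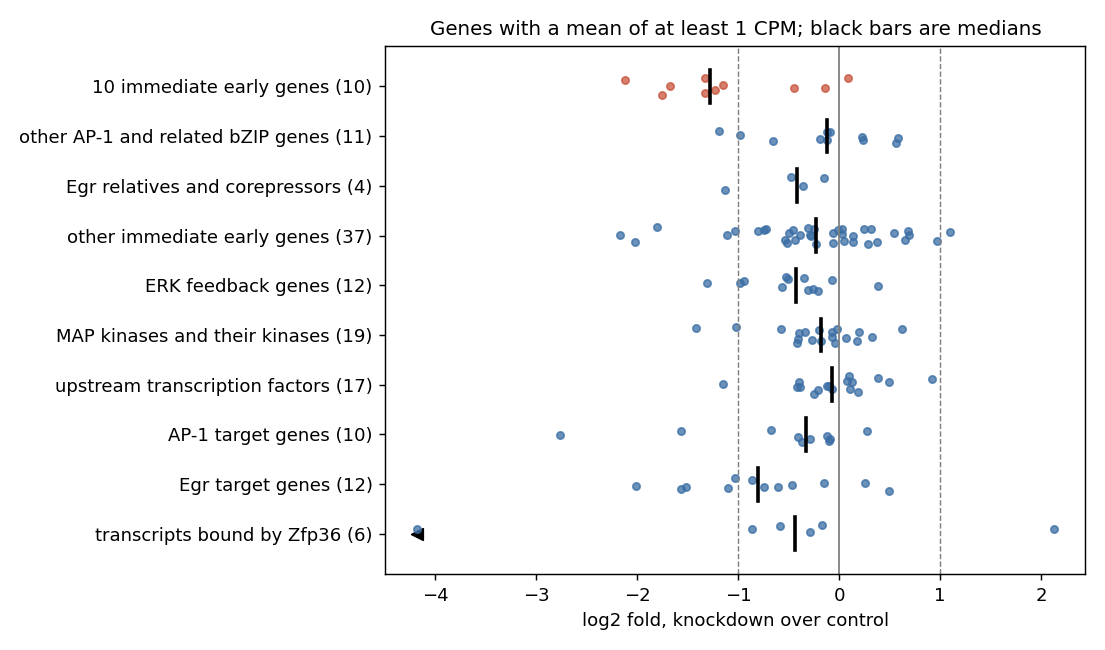
Log2 fold, knockdown over control, of each gene with a mean of at least 1 CPM in the 10 immediate early genes (red) and 9 related lists (blue), with the number of genes in brackets. Black bars are medians and dashed lines 2-fold. The triangle is Ccl3 at its bound, and the median of the 10 genes lies at -1.28 while those of the other lists lie between -0.80 and -0.069.

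Markers of cell types also differed between the libraries, in both directions. Of the markers of the labelled cell type, Nes stood at 708 and 806 CPM and Sox2 at 288 and 476 CPM. Bulk RNA does not show which cells carried them. Of 12 neural stem cell and radial glia genes, 11 were above their control level, 2 of them past 2-fold, with a median log2 fold of 0.72 and sums of 6852 and 8925 CPM. Of 17 neuronal genes, 13 passed 2-fold downward and 0 upward, and their summed level was 3819 CPM for control cells and 1578 CPM after knockdown. Of 9 genes of meningeal fibroblasts and mesenchyme past the minimum, 6 were lower and 1 higher, with sums of 359 and 173 CPM and Lum at 0 in the knockdown library. The higher gene was Pdgfra, at a log2 fold of 2.94, which is also on the oligodendrocyte lineage list. Microglia and macrophage genes summed to 40.5 and 12.4 CPM, and 3 of 15 passed the minimum. In the knockdown library C1qb, C1qc, Csf1r, Cx3cr1, Ptprc and Tmem119 were at 0. Of 3 endothelial and pericyte genes past the minimum, 1 passed 2-fold downward and 1 upward. The list summed to 7.65 and 8.88 CPM, with Cdh5, which did not pass the minimum, at 0 in the knockdown library. In the other direction, 7 of 10 astrocyte genes passed 2-fold upward, with sums of 650 and 6055 CPM. Of 11 oligodendrocyte lineage genes, 8 were higher, with sums of 3013 and 5325 CPM. Of 8 heat shock genes past the minimum, 0 passed 2-fold in either direction and all lay below their control level, with list sums of 3809 and 2749 CPM. In such bulk libraries, fewer cells of a type and less RNA per cell cannot be told apart. The part of these cell types and of handling in the levels of the 10 genes was not tested.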

How the data were processed

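RNA sequencing libraries of neural stem cells were made from 1 control and 1 knockdown sample. HTSeq 0.6.0, TopHat2 2.0.12, Bowtie2 2.2.3 and the build mm9 are listed in the submitters' processing notes. Order, settings and strand use are not given in the sources used here. Gene positions in the table are GRCm38 positions. The authors deposited raw counts per gene (16549682 for control, 16058407 for knockdown), CPM, a fold ratio and its log2, and p-values and adjusted p-values of an unnamed test, per the file headers.

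From the counts, libraries were scaled with edgeR 4.0.16 TMM factors (1.02 and 0.982). For log2 folds (knockdown over control), 0.5 was added to each count before division by the scaled library size. Ratios and CPM carry no such addition and have exact 95% intervals. Genes needed a mean of 1 CPM to be counted, and a fixed rule of 2-fold on the log2 fold stands in for a test. PCR copies are not independent molecules. A floor of 3 counts equals 0.178 CPM for control and 0.190 CPM for knockdown. The calculation was tested on simulated data. Lengths and overlaps came from GENCODE M21. The 10 genes and the lists were chosen with earlier results of these data known. Named are all 10 genes, family relatives and up to 4 genes of each signalling list by absolute log2 fold, and some marker genes named for their roles. The symbols Ccn1, Ccn2, Mrtfa and Mrtfb stand in the table as Cyr61, Ctgf, Mkl1 and Mkl2. Alternatives were DESeq2 1.42.0 factors, total counts, the authors' CPM, other minima, prior counts and thresholds, and removal of the length and GC trend.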

Additional observations from a re-analysis of the deposited data

How the results depend on the processing

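The count of genes at least 2-fold lower was 7 under DESeq2's factors, total counts, the authors' CPM, no minimum, a prior count of 5, a 1.5-fold threshold and removal of the length and GC trend. Over all genes the share was 15.7% at 1.5-fold and 12.6% with no minimum. Under the other settings just listed it lay between 7.06% (prior count of 5) and 8.58% (the authors' CPM). The count was 6 of 8 genes with a minimum of 10 CPM, where 4.87% of all genes were at least 2-fold lower. It was 3 at a threshold of 3-fold, where 3.49% of all genes were lower. The count at least 2-fold higher was 0 under each of these settings. The median log2 fold of the 10 genes ranged from -1.19 (prior count of 5) to -1.33 (the authors' CPM). Without the 4 genes that share exonic bases with another gene, an alternative chosen after seeing the data, 5 of 6 were lower. Over all genes, overlapping ones included, the share was 7.76%. Of 68 log2 folds of single genes under alternatives, 2 lay outside their counting interval, both with the length and GC trend removed, Egr1 at -2.24 and Jun at -0.036. Jun was the 1 gene whose sign changed. List medians were set against a band from the median of their genes' lower interval limits to the median of the upper limits. This band is not a counting interval of the median and can be wide, as for the endothelial list (-1.20 to 0.614). Of 118 list medians under alternatives, 3 lay outside it. These were microglia at -3.60 with no minimum, and mesenchyme at -1.59 and oligodendrocytes at 3.32 with 10 CPM. A change of sign occurred for 2 medians. The AP-1 relatives moved to 0.066 with a minimum of 10 CPM, and the upstream factors to 0.0033 with the length and GC trend removed. Other list medians that moved by over 1.5 times were those of the other immediate early genes, AP-1 targets and Zfp36-bound messages, given above. Of 22 family shares, 20 moved beyond counting error when counts were divided by exonic length. Jun then took 52.6% and 72.5% of its family. No paired analysis was possible because each group has 1 library. The low counts of Fosb and Jund, and the single library per group, limit what can be said.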
